A study of Homo sapiens with 9 samples.

Results

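The Krüppel-like factors (KLFs) were followed in a leukemia cell line in which an enhancer of MEF2C had been targeted. Members were taken by gene symbol in GENCODE 44, and all transcripts of a gene identifier were summed. The set held 10 genes of the 62700 genes quantified, namely KLF2, KLF3, KLF4, KLF6, KLF7, KLF9, KLF10, KLF11, KLF12 and KLF13. Of these, 6 passed the filter on low counts and could be tested beside 14436 genes in all. KLF2 and KLF3 had a few counts only, and KLF4 and KLF7 had none.

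RNA was sequenced from HAL-01, an established line of human acute lymphoblastic leukemia of B cell origin (B-ALL) in which the TCF3 and HLF genes are joined into the fusion transcription factor TCF3::HLF. All cells, controls included, stably expressed Cas9 and GFP. The 3 libraries of sgRNA_96 and the 3 of sgRNA_97 carried guides against the HLF motif of the MEF2C enhancer that TCF3::HLF occupies, and together they form the enhancer KO group. The 3 libraries of SCR1 carried a scrambled guide. All were collected on day 13, and replicates are numbered 1, 3 and 4 in every group. The libraries come from 1 cell line, and the labels do not say whether replicates were separate cultures, so p-values measure the spread between these libraries, which may be technical. The share of edited cells was not analysed here.

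KLFs are zinc finger transcription factors that share a C-terminal DNA binding domain and bind GC-rich and CACCC elements in promoters, where some activate and others repress. In lymphocytes KLF2 maintains quiescence and controls trafficking receptors such as S1PR1, and KLF4 restrains proliferation. KLF2 and KLF4 are known targets of the MEK5-ERK5-MEF2 pathway in endothelial cells, which is why their promoters are of interest beside a MEF2C enhancer.

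Promoter windows from RefSeq (GRCh38.p14), running from 250 bases before to 50 bases after a transcript start, were matched to 8 of the 10 members. KLF3 and KLF10 were not used here. The 8 members had 15 windows in all, since KLF7, KLF11 and KLF12 have several starts. The MEF2 motif, searched on both strands by its consensus, was found in 2 of the 15 windows, against 2.99% of all 35116 windows. One match was in the only KLF2 window and the other in 1 of the 4 KLF12 windows, at chr13:74027069-74027078. That KLF12 window precedes neither start of the main KLF12 transcripts, KLF12-201 (chr13:74133929) and KLF12-203 (chr13:74134404). The KLF2 match is shown in the 250 bases before the KLF2 start, chr19:16324576-16324825 on the plus strand, with the match in capitals at chr19:16324706-16324715.

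KLF2 upstream: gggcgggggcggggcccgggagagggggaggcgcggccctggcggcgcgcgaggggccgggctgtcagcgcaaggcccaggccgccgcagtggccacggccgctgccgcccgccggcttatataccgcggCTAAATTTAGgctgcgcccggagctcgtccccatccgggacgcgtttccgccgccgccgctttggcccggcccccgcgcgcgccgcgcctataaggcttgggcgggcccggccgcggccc

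The palindrome TTACGTAA and the related TTATGTAA, forms that HLF and other PAR bZIP proteins bind, were in 0 of the 15 windows on either strand, and in 0.125% and 0.886% of all windows. CACCC was present in 7 of the 15 windows against 59.9% of all windows, and GGGCGG in 8 of the 15 against 45.0%. These matches describe letters in the windows and are not evidence of binding.

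Library depth ranged from 15212462 to 29777361 counts, with sgRNA_97 replicate 1 the lowest and SCR1 replicate 1 the deepest. MEF2C, the gene of the targeted enhancer, stood at 560, 559 and 536 CPM in SCR1 replicates 1, 3 and 4. CPM is the count over the scaled library size times 1000000. It was 495, 498 and 510 CPM with sgRNA_96 and 553, 505 and 495 CPM with sgRNA_97. In 5 of the 6 KO libraries it lay under every SCR1 value, and sgRNA_97 replicate 1 fell inside the SCR1 range. The log2 fold change of enhancer KO against SCR1 was -0.12 (SE 0.042, adjusted p = 0.0620), so MEF2C missed the threshold of 0.05. It passed with DESeq2 (adjusted p = 0.0270) and without sgRNA_97 replicate 1 (0.0143). Markers of precursor B cells were abundant, with a summed TPM of 4368 to 4577 in SCR1 and 4367 to 4712 in the KO libraries. TPM is the deposited abundance per transcript length, scaled to 1000000 per library. The T cell genes CD3D, CD3E and CD3G and all 5 erythroid markers had no count in any library. TRAC, also on the T cell list, was present at a mean of 53.4 CPM in SCR1. Summed over the 5 T cell markers, TPM was 82.6 to 88.4 in SCR1 and 67.8 to 79.8 in the KO libraries.

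The levels of the KLF members spanned a wide range in SCR1 when compared per transcript length, in TPM. KLF13, known as an activator of the chemokine gene CCL5 in T cells, had 15.2, 23.5 and 17.9 TPM in replicates 1, 3 and 4. KLF6, an early response gene found in most tissues, had 17.1, 19.1 and 17.0 TPM. These levels, the highest among the members, overlap, and both lay slightly above the median of 13.2 TPM over the genes tested, at percentiles 59.1 and 57.3. KLF16, a KLF gene outside the set, was as high, at 17.7 to 20.2 TPM in SCR1.

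KLF12, a repressor that recruits the corepressor CtBP, followed at 6.65, 7.85 and 6.63 TPM. KLF11 lay between 5.49 and 5.55 TPM and KLF10 between 4.03 and 6.32 TPM, so the ranges of KLF10 and KLF11 overlap, while both lay under all KLF12 values. KLF9, a hormone-responsive repressor that binds Sin3, was far lower at 0.573 to 0.595 TPM. KLF2, at 0.0847 to 0.738 TPM, overlapped KLF9 in SCR1, and KLF3, at 0.0221 to 0.0552 TPM, was lowest of the members with counts.

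**Figure D1:**
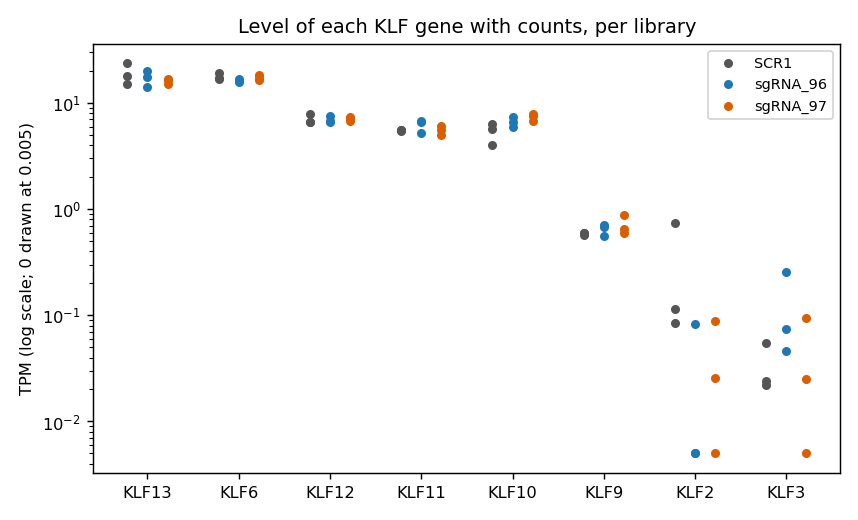
TPM of each KLF member of the set with counts (log axis, values of 0 drawn at 0.005), with 1 point per library and a colour per group. Among these members KLF13 and KLF6 were highest, KLF12, KLF11 and KLF10 formed a middle level, and KLF2 and KLF3 lay at or under 0.738 TPM in every library.

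Part of the spread of KLF13 in TPM came from 1 short transcript. KLF13-204, of 447 bases, was assigned 7.54 TPM in SCR1 replicate 3 from 27.9 estimated counts, and it was at 0 in 5 of the 9 libraries. The main transcript KLF13-201 was steadier, at 15.2, 16.0 and 15.8 TPM in SCR1. Differences between groups are therefore given in CPM, which does not depend on this division.

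Among the 6 members tested, 1 was called in enhancer KO against SCR1 by the quasi-likelihood test of edgeR, where 20.7% of all genes were called. That member was KLF10, which was called higher, as were 10.1% of all genes. The median log2 fold change of the 6 members was 0.036, and that of all genes was 0.0028. With 1 call among 6 members, the share of members called was near that of all genes. None of the 6 members had values that did not overlap between KO and SCR1, a pattern that 20.3% of all genes showed.

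KLF10 and KLF11 are the TGF-beta inducible early genes, repressors that recruit Sin3 and restrain proliferation. KLF10 (ENSG00000155090.15, chromosome 8, minus strand) had 12.3, 13.2 and 8.89 CPM in SCR1 replicates 1, 3 and 4. It had 14.1, 16.0 and 12.2 CPM with sgRNA_96 and 16.1, 14.5 and 16.7 CPM with sgRNA_97. Every KO library other than sgRNA_96 replicate 4 exceeded all SCR1 libraries, and the lowest value of all was SCR1 replicate 4. In RNA from a whole culture, a change in every cell and a larger change in some of the cells cannot be told apart.

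The log2 fold change of KLF10 in enhancer KO against SCR1 was 0.38 (SE 0.13, 95% interval 0.11 to 0.64, adjusted p = 0.0420). The call depended on single libraries. It was lost in 6 of the 9 fits that each left out 1 library, namely those without SCR1 replicate 1 (adjusted p = 0.0796), SCR1 replicate 4 (0.247), sgRNA_96 replicate 3 (0.0783) and sgRNA_97 replicates 1, 3 and 4 (0.0712, 0.0541 and 0.0761). Without SCR1 replicate 4 the log2 fold change was 0.23. The limma fits on TPM and the fit with a length offset did not call KLF10 either, though the direction was higher in all 17 alternatives.

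**Figure D2:**
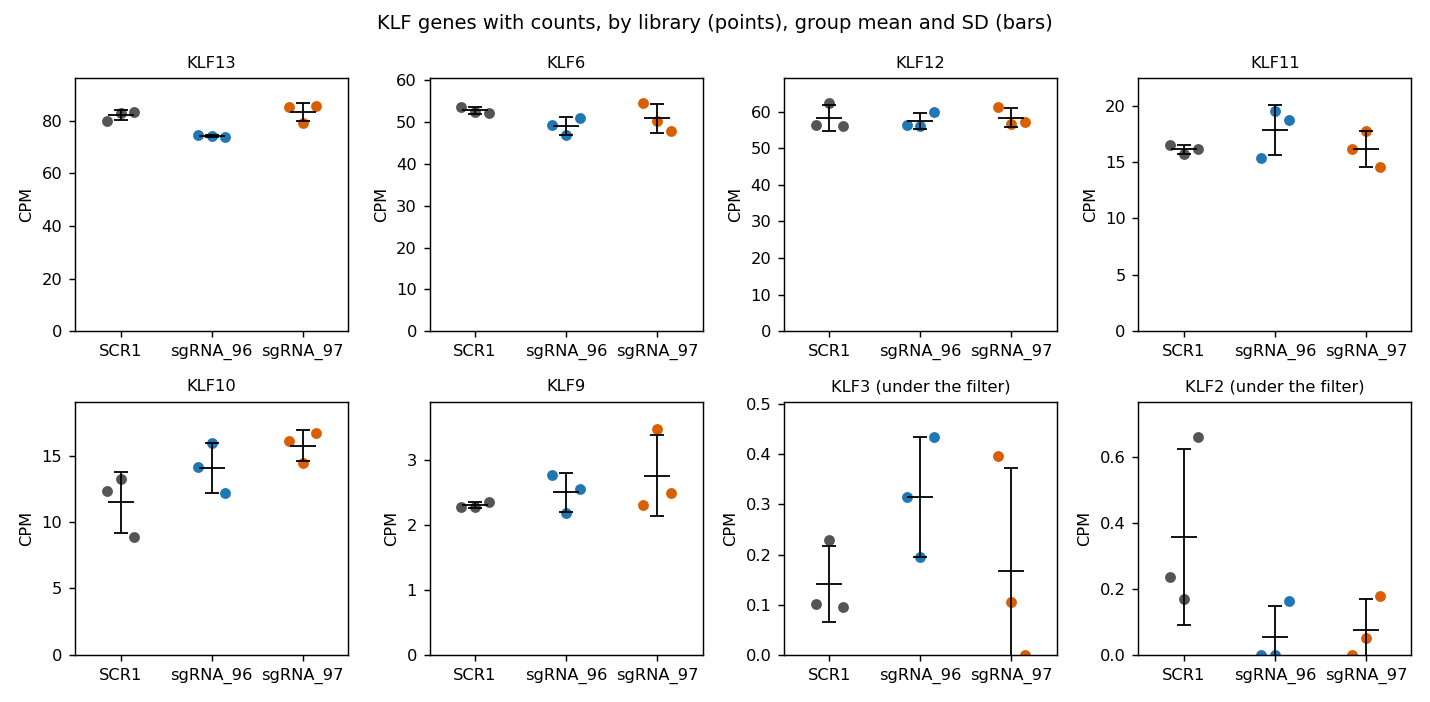
CPM of the 8 KLF members with counts in each library (points) with the group mean and SD (bars, n = 3 per group). KLF10 was higher in 5 of 6 KO libraries than in any SCR1 library, and the 3 sgRNA_96 values of KLF13 lay together under the other groups.

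With each guide on its own, KLF10 had a log2 fold change of 0.30 for sgRNA_96 (adjusted p = 0.199) and 0.46 for sgRNA_97 (adjusted p = 0.0432). Both guides share the SCR1 libraries. Between the guides the difference of 0.16 was not called (adjusted p = 1.00). By edgeR 0 members were called for sgRNA_96, where 11.2% of all genes were called, and 1 of 6 for sgRNA_97, where 15.1% were. In sgRNA_97 against sgRNA_96 edgeR called 0 members and 0.0208% of all genes. In each of these comparisons without a call 1 member, KLF13, had an unadjusted p under 0.05, and DESeq2 and limma called 0 members.

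KLF13 had the lowest unadjusted p between the guides. It had 80.1, 83.0 and 83.5 CPM in SCR1. It had 74.6, 74.3 and 74.1 CPM with sgRNA_96 and 85.1, 79.3 and 85.5 CPM with sgRNA_97. All sgRNA_96 values lay under all others, and the sgRNA_97 values overlapped SCR1. The log2 fold change was -0.15 for sgRNA_96 against SCR1 (95% interval -0.26 to -0.03, adjusted p = 0.0959) and 0.02 for sgRNA_97 (95% interval -0.10 to 0.13, adjusted p = 0.847). The difference between the guides was 0.16 (SE 0.054, unadjusted p = 0.0085, adjusted p = 1.00) and did not pass the threshold.

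KLF13 was the only 1 of the 6 members whose values did not overlap between the guides, against 7.77% of all genes. Against SCR1, 2 of 6 members did not overlap for sgRNA_96, KLF6 and KLF13, where 29.6% of all genes did not. For sgRNA_97 it was 1 of 6, KLF10, where 34.3% of all genes did not.

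The other members tested showed small differences. KLF6 (ENSG00000067082.15, chr10:3775996-3785281, minus strand) had 53.7, 52.5 and 52.3 CPM in SCR1 and 46.9 to 54.6 CPM in the KO libraries, where 5 of 6 lay under SCR1. Its log2 fold change was -0.08 (95% interval -0.20 to 0.04, adjusted p = 0.327). KLF11 (ENSG00000172059.11, chr2:10042849-10054836, plus strand) had 16.5, 15.7 and 16.2 CPM in SCR1, and KO libraries lay on both sides, from 14.6 to 19.5 CPM. For KLF11 the log2 fold change was 0.08 (95% interval -0.12 to 0.28, adjusted p = 0.615).

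KLF12 (ENSG00000118922.19, chr13:73686089-74134404, minus strand) had 56.3, 62.4 and 56.1 CPM in SCR1, and all KO values, 56.1 to 61.2 CPM, lay inside that range. Its log2 fold change was -0.0060 (95% interval -0.12 to 0.11, adjusted p = 0.951), the tightest interval among the members. KLF13 as a whole, with both guides together, had a log2 fold change of -0.06 (95% interval -0.18 to 0.06, adjusted p = 0.485). KLF9 (ENSG00000119138.5, chr9:70384604-70414657, minus strand) had 2.27, 2.28 and 2.36 CPM in SCR1 and 2.19 to 3.47 CPM in the KO libraries. The KLF9 log2 fold change of 0.19 had a wide 95% interval, -0.24 to 0.63 (adjusted p = 0.557), with 35 to 67 counts per library.

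**Figure D3:**
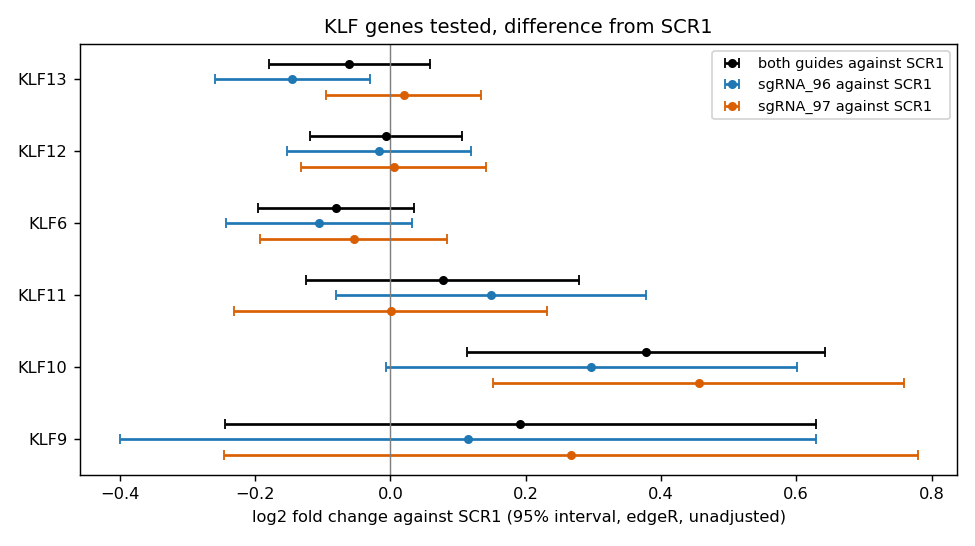
Log2 fold change against SCR1 with its unadjusted 95% interval for the 6 KLF members tested, for both guides together and for each guide. The KLF10 interval with both guides, 0.11 to 0.64, lay above 0, and the intervals of both guides together for the other 5 genes spanned 0.

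KLF2 (ENSG00000127528.6, chr19:16324826-16328685, plus strand) was barely detected. It had 7, 3 and 14 counts in SCR1 replicates 1, 3 and 4, 0, 0 and 3 counts with sgRNA_96, and 0, 1 and 3 counts with sgRNA_97. Summed, these are 24 counts in SCR1 and 7 in the KO libraries. The rates overlap, since sgRNA_97 replicate 4 at 0.178 CPM exceeded SCR1 replicate 3 at 0.171 CPM.

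The pooled KLF2 rate in KO was 0.188 times that in SCR1, with an exact 95% interval of 0.0684 to 0.449 that covers counting error only. SCR1 replicate 4 gave 14 of the 24 SCR1 counts, and without it the ratio was 0.311 (95% interval 0.1005 to 0.905). In SCR1 replicate 4, 66.9% of the KLF2 TPM was assigned to the short transcript KLF2-202, which was at 0 in all other libraries. With no filter on low counts edgeR called KLF2 lower (log2 fold change -2.33, adjusted p = 0.0470), and limma on log2(TPM + 1) without a filter did not (adjusted p = 0.326).

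KLF3 (ENSG00000109787.13, chr4:38664197-38701517, plus strand), a CtBP-binding repressor that is active in B cell development, had 3, 4 and 2 counts in SCR1. It had 5, 4 and 8 counts with sgRNA_96 and 6, 2 and 0 with sgRNA_97. The pooled rate ratio was 1.79 with an exact 95% interval of 0.808 to 4.36, so a difference was not detectable at this depth. KLF4 (chr9:107484852-107490482, minus strand) and KLF7 (chr2:207074137-207173856, minus strand), a relative of KLF6, had 0 counts in all 9 libraries. This allows a level of up to 0.0172 CPM over the 9 libraries together, or 0.102 to 0.199 CPM in a single library.

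Within KLF12 the total held steady while its transcripts did not. Over all libraries KLF12-201 held 82.6% of KLF12 TPM and KLF12-203 held 17.0%. KLF12-201 and KLF12-203 have 8 exons each, of which 7 are identical, and they differ in the first, noncoding exon. That exon is chr13:74133739-74133929 in KLF12-201 and chr13:74133972-74134404 in KLF12-203, so their starts are 475 bases apart. The 42 bases between both exons, chr13:74133930-74133971, belong to the first intron of KLF12-203 and lie upstream of the KLF12-201 start. They are shown in the direction of transcription, with the splice donor end in capitals, followed by the 100 bases upstream of KLF12-203, chr13:74134405-74134504, with GGGCGG and the reverse complement of CACCC in capitals. Both are on the minus strand and come from RefSeq windows of GRCh38.p14.

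KLF12-201 upstream: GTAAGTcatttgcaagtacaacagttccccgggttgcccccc
KLF12-203 upstream: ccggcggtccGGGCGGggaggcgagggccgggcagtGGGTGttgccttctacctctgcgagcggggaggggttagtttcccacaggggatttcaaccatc

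KLF12-203 had 1.94, 3.54 and 1.54 TPM in SCR1 replicates 1, 3 and 4. It had 0.702, 0.998 and 0.148 TPM with sgRNA_96 and 0.746, 0.959 and 0.157 TPM with sgRNA_97. All KO values lay under all SCR1 values with either guide.

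KLF12-201 had 4.71, 4.03 and 5.08 TPM in SCR1, and 5.67 to 7.36 TPM in the KO libraries, above all SCR1 values. The share of KLF12-203 in KLF12 TPM was 32.5 ± 11.3% (SD, n = 3) in SCR1 and 8.98 ± 5.66% (SD, n = 6) in KO. In each of the 3 groups replicate 3 had the highest share and replicate 4 the lowest, from 45.1% to 23.3% in SCR1, 14.95% to 1.97% with sgRNA_96 and 14.1% to 2.24% with sgRNA_97.

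Shares were compared for transcripts with at least 5% of the TPM of a tested gene, in genes with more than 1 such transcript. Of 10 such transcripts in 4 KLF members, 2 did not overlap between KO and SCR1, and these are the complementary pair of KLF12. Of all 38478 such transcripts 3.11% did not overlap. The KLF12 pair was singled out after its values were seen and no test is given. Salmon divides reads shared by transcripts by likelihood, and only reads that touch the first exon can tell these transcripts apart.

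**Figure D4:**
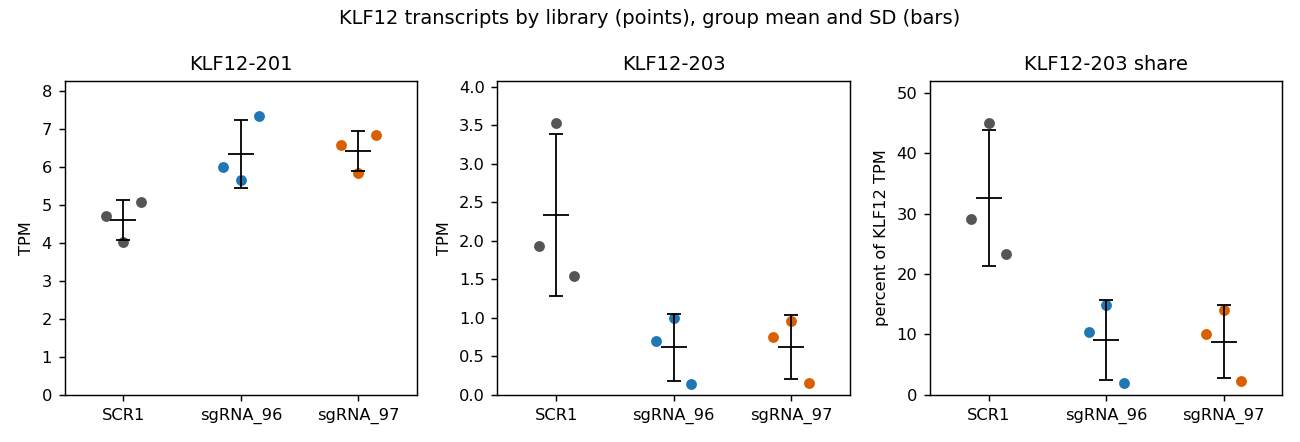
TPM of KLF12-201 and KLF12-203 and the share of KLF12-203 in KLF12 TPM, by library (points), with group mean and SD (bars, n = 3 per group). KLF12-203 was at 1.54 TPM or more in SCR1 and at 0.998 TPM or less with either guide.

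The main transcripts of the other members overlapped between groups. KLF6-206 made up 79.4% of KLF6 TPM over all libraries, KLF10-201 99.2% of KLF10 and KLF11-206 82.3% of KLF11. KLF9 has a single transcript. Gene models that overlap the members on either strand were at or under 0.0487 TPM on average, and strand use in the counting was not stated.

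The remaining KLF genes and the related SP genes gave 0 calls, where edgeR called 20.7% of all genes. With 3 and 4 genes tested, these counts are too small to set apart from that share. Of 8 other KLF genes 3 were tested, and edgeR, DESeq2 and limma called 0 of them, with 1 at an unadjusted p under 0.05 by edgeR. KLF15 came nearest, at 0.984, 1.48 and 0.993 CPM in SCR1 and 0.356 to 1.07 CPM in KO. Its log2 fold change was -0.82 (SE 0.38, unadjusted p = 0.0477, adjusted p = 0.144), from 6 to 29 counts per library. KLF16 and KLF5 were not called, KLF1 had 2 to 9 counts per library, and KLF8, KLF14, KLF17 and KLF18 had none. Of the 9 SP genes 4 were tested, and edgeR, DESeq2 and limma called 0, with 0 at an unadjusted p under 0.05 and a median log2 fold change of 0.02.

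Genes that act upstream of KLF2 and KLF4 showed 1 call. In the list of MEK5, ERK5 and MEF2 genes, 8 of 8 were tested, 1 was called higher and 0 lower by edgeR, against 10.1% and 10.6% of all genes. At an unadjusted p under 0.05 there were 2 higher and 1 lower, DESeq2 called 2 and 1, and limma 0. The called gene was MEF2A, a MEF2 family activator, at 158 ± 11.3 CPM in SCR1 (SD, n = 3) and 179 ± 6.74 CPM in KO (SD, n = 6). Its log2 fold change was 0.18 (adjusted p = 0.0169), and the call was lost without SCR1 replicate 1 (adjusted p = 0.0924) or replicate 4 (0.125), in the 3 limma fits and with the length offset (0.0595 to 0.124).

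Of 13 cofactors and regulators of KLF proteins, 2 were called higher and 1 lower, near the 10.1% and 10.6% of all genes, with a median log2 fold change of 0.05. On log2(TPM + 1) limma called 1 higher and 0 lower. FBXW7, the ubiquitin ligase subunit that marks KLF2 and other proteins for degradation, rose from 68.3 ± 4.51 to 117 ± 9.31 CPM (log2 fold change 0.78, adjusted p = 1.49e-06), higher in 6 of 6 KO libraries than in any SCR1 library. The corepressor subunit SIN3B rose by 0.25 on the log2 scale (adjusted p = 0.00687), a call that the 3 limma fits and the length offset did not make (0.0742 to 0.169). SAP30, another subunit of the Sin3 complex, fell by 0.29 (adjusted p = 0.0161), a call that was lost without SCR1 replicate 1 (0.121) and in the same 4 fits (0.0561 to 0.110).

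Genes of lymphoid quiescence and trafficking were called higher more often than lower. The list includes known KLF2 targets, but the counts are for the whole list and KLF2 targets were not counted apart. Like every list here, it was chosen with earlier results of these data known, so its counts are a description only. Of 22 tested, 11 were called higher and 2 lower by edgeR, where 10.1% and 10.6% of all genes were, with a median log2 fold change of 0.16. On log2(TPM + 1) limma called 5 higher and 1 lower. TXNIP, an inhibitor of thioredoxin and glucose uptake, rose from 61.8 ± 6.01 CPM to 136 ± 21.6 CPM (log2 fold change 1.15, adjusted p = 5.23e-06). PIK3IP1, an inhibitor of PI3 kinase, rose by 0.62, the antiproliferative gene BTG2 by 0.47 and FOXO1 by 0.37 on the log2 scale, each in 6 of 6 KO libraries. TSC22D3, a glucocorticoid-induced leucine zipper gene, fell from 5.73 ± 0.753 to 2.27 ± 0.547 CPM (log2 fold change -1.34, adjusted p = 0.000243).

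TGF-beta signalling genes, which lie upstream of KLF10 and KLF11, gave 1 call in each direction among 10 tested, a share like the 10.1% higher and 10.6% lower of all genes, with a median log2 fold change of 0.08. SKIL, a repressor of SMAD proteins, rose by 0.45 on the log2 scale (adjusted p = 0.00377), from 9.17 ± 0.476 to 12.5 ± 0.969 CPM. The 3 limma fits and the length offset called neither SKIL (adjusted p of 0.336 to 0.665) nor TGFBR2 (0.139 to 0.398). The receptor gene TGFBR2 fell by 0.18 (adjusted p = 0.0249), and this call was lost in 4 of 9 fits that left out 1 library, without SCR1 replicate 1 (0.0753) or 3 (0.136), sgRNA_96 replicate 3 (0.0568) or sgRNA_97 replicate 4 (0.0531).

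Glucocorticoid response genes, a list chosen because KLF9 is induced by these hormones, went both ways. Of 9 tested, 2 were called higher and 3 lower, where 10.1% and 10.6% of all genes were, with a median log2 fold change of -0.26. On log2(TPM + 1) limma called 1 higher and 2 lower. NR3C1, the glucocorticoid receptor, rose from 148 ± 9.49 to 204 ± 7.27 CPM (log2 fold change 0.47, adjusted p = 8.12e-06). The phosphatase gene DUSP1 fell by 0.56 (adjusted p = 8.34e-06) and the proapoptotic gene BCL2L11 by 0.26 (adjusted p = 0.00987), the latter lost without SCR1 replicate 1 (0.0757), in the 3 limma fits and with the length offset (0.155 to 0.367). CXCR4, a chemokine receptor gene, was called higher by 0.12 (adjusted p = 0.0488), a call lost in 6 of 9 fits that left out 1 library, with adjusted p values of 0.0298 to 0.258 over the 9, and in 6 other alternatives (0.0502 to 0.165).

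Cell cycle genes, which several KLFs are known to restrain, were called lower in 16 of 20 and higher in 0 by edgeR, against 10.6% and 10.1% of all genes, with a median log2 fold change of -0.28. At an unadjusted p under 0.05 there was 1 higher, which DESeq2 called, and limma called 13 lower and 0 higher. The replication licensing gene MCM2 fell from 300 ± 11.7 to 226 ± 9.09 CPM (log2 fold change -0.41, adjusted p = 1.12e-05). MCM5, MCM4 and MCM7 fell by 0.38, 0.35 and 0.33, and the G1 cyclin genes CCND3 and CCNE1 by 0.36 and 0.50. With limma on log2(TPM + 1) without a filter MCM5 was not called (adjusted p = 0.0527). The CCNE1 call was lost without SCR1 replicate 1 (adjusted p = 0.0644) or 3 (0.0750), in the 3 limma fits and with the length offset (0.115 to 0.296).

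Immediate early genes, the class to which KLF6 and KLF10 belong by their rapid induction, were called lower in 6 of 12 and higher in 0 by edgeR, against 10.6% and 10.1% of all genes, with 0 higher at an unadjusted p under 0.05. DESeq2 called 6 lower and 0 higher, and limma 2 and 0. EGR1 fell from 7.69 ± 0.273 to 2.92 ± 0.472 CPM (log2 fold change -1.40, adjusted p = 1.14e-05), JUN by 0.89 and ATF3 by 0.49 on the log2 scale. With limma on log2(TPM + 1) without a filter JUN was not called (adjusted p = 0.0650). ATF3 was not called without SCR1 replicate 1 (adjusted p = 0.0754), in the 3 limma fits or with the length offset (0.198 to 0.473). NR4A1 fell by 0.78 (adjusted p = 0.0192), lost without SCR1 replicate 3 (0.0977) or 4 (0.0650), in the 3 limma fits and with the length offset (0.124 to 0.322). FOS, at -0.75 (adjusted p = 0.0397), and FOSL2, at -0.14 (adjusted p = 0.0489), were each lost in 7 of 9 fits that left out 1 library, with adjusted p values of up to 0.177 and 0.193, and in 4 and 5 other alternatives (up to 0.165 and 0.283).

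**Figure D5:**
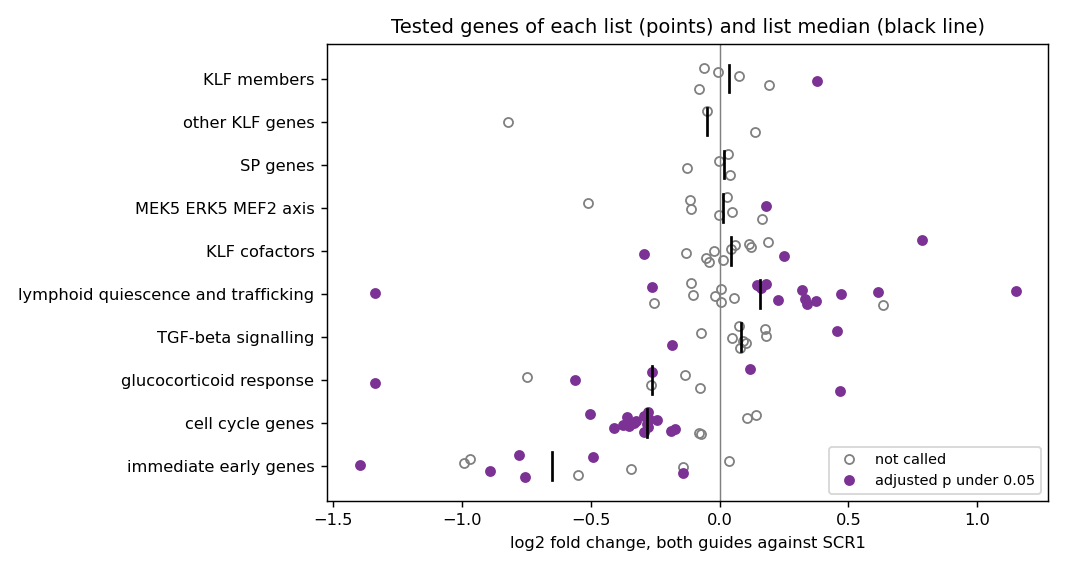
Log2 fold change of both guides together against SCR1 for the tested genes of each list (points), filled where the adjusted p was under 0.05, with the list median as a black line. The median of the KLF members was 0.036, the cell cycle median -0.28 and the immediate early median -0.65.

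Among cell type markers, DNTT, a terminal transferase of precursor B cells, rose by 0.26 (adjusted p = 0.000328). It was the only 1 of 8 B lineage markers called by edgeR, against 10.1% of all genes called higher and 10.6% lower. At an unadjusted p under 0.05 edgeR had 3 higher and 2 lower. DESeq2 called 2 higher and 1 lower, limma 1 and 0, and the list median log2 fold change was -0.057. TRAC, the only 1 of 5 T cell markers tested, fell by 0.24 (adjusted p = 0.00994). The TRAC call was lost with the length offset and with limma on log2(TPM + 1) without a filter (0.0502 to 0.0527). The myeloid gene MPO rose by 1.08 on the log2 scale (adjusted p = 0.000894), from 2.75 ± 0.164 to 5.82 ± 1.19 CPM. With limma on log2(TPM + 1) without a filter MPO was not called (adjusted p = 0.140). Of the 5 myeloid markers 2 were tested, and the other 1 was lower at an unadjusted p under 0.05 by edgeR but not called. The summed TPM of the 5 myeloid markers was 13.1 to 16.4 in SCR1 and 11.99 to 16.7 in KO, and their part in the KLF values was not tested.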

How the data were processed

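RNA of 9 HAL-01 libraries was sequenced from TruSeq mRNA libraries. Per the labels' processing notes the authors used STAR and Salmon 1.10.1 with GRCh38, and they deposited estimated counts per transcript, not normalized, and TPM per transcript. All 252835 transcripts matched GENCODE 44 with the same gene, and 87.8% of the estimated counts above 0 were not whole.

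Transcript counts were added up for each gene and rounded to integers. The filter was filterByExpr (minimum count 10), scaling was by TMM, and edgeR 4.0.16 under R 4.3.3 gave the quasi-likelihood test. Its p-values were adjusted by the Benjamini-Hochberg method across the genes tested (threshold 0.05). Enhancer KO pooled the 6 libraries of both guides, and single guides came from a fit with 3 groups. The study's methods name DESeq2, which was run as an alternative (1.42.0) beside limma 3.58.1 on log2(TPM + 1) and log2(TPM + 0.1), RLE scaling, no filter, a transcript length offset, a replicate block and leaving out each library. Fold changes from the limma fits are on the log2(TPM + pseudocount) scale, which understates changes of low genes. Standard errors and intervals come from the edgeR fit, and exact intervals of rate ratios are binomial at 95%. A limit for 0 counts uses 3 counts and covers counting error only. The gene test was tested on simulated counts. A test of transcript usage was set aside because most of its calls on simulated counts lay in genes that had not been changed.

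Members and lists were chosen with earlier results of these data known. Named were all members, up to 6 called genes of largest change per other list, MEF2C, and transcripts with at least 5% of a member's TPM. KLF15, the level of KLF16, the KLF12 pair and genes at 0 were named after their values were seen. A gene that this rule also names is not reported here.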

Additional observations from a re-analysis of the deposited data

Results flagged for a closer look

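In the 6 KO libraries the share of KLF11 TPM given to transcript KLF11-201 was 39.5% in sgRNA_97 replicate 4 and at most 11.8% in the others, a gap of 0.702 of the range, above the limit of the Dixon test for 6 samples. The main transcript KLF11-206 had 60.5% in the same library and at least 84.4% in the others (0.706 of the range). Both flagged values are from the same division of KLF11 reads. In SCR1 the share of KLF11-206 ran from 56.0% to 88.4%, so its flagged value lay inside the SCR1 range. That of KLF11-201 ran from 5.08% to 19.1% in SCR1, under its flagged value. In all, 19 sets of values were checked, and chance flags about 1 in 20 of them.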

How the results depend on the processing

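The count of KLF members called in enhancer KO, 1 in the reported fit, was 2 with no filter on low counts, where KLF2 was added, and 0 with the transcript length offset, with limma on log2(TPM + 1), on log2(TPM + 0.1) and on log2(TPM + 1) without a filter. For sgRNA_97 the count was 0 with the length offset and in the 3 limma fits. Leaving out 1 library gave 0 to 1 for enhancer KO and for sgRNA_97, and 0 for sgRNA_96 and between the guides.

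The KLF10 log2 fold change was 0.39 with the length offset (adjusted p = 0.1001), 0.35 with limma on log2(TPM + 1) (0.128, or 0.261 without a filter) and 0.40 on log2(TPM + 0.1) (0.126). It ranged from 0.23 to 0.48 when 1 library was left out, and adjusted p ranged from 0.0121 to 0.261 over all 17 alternatives. The KLF12 value of -0.0060 turned to 0.00065, 0.0046 and 0.0026 without sgRNA_96 replicate 1, sgRNA_96 replicate 3 and sgRNA_97 replicate 3, and to 0.04 without SCR1 replicate 3, with a range of -0.033 to 0.040 when 1 library was left out and adjusted p of at least 0.687. MEF2C passed the threshold with DESeq2 (adjusted p = 0.0270) and without sgRNA_97 replicate 1 (0.0143). Of 31 genes that the rule named in other lists, 17 lost their call in at least 1 alternative and 0 changed direction. The cause was not tested.

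Libraries with the same replicate number did not deviate together (correlations of -0.0844 to 0.0655 over 9 pairs), which was under 0.1 in every pair, so the numbers were not taken to pair the samples. This is over all genes, and the KLF12-203 share did rank the same by number in each group. With the replicate block KLF10 stayed called (log2 fold change 0.38, adjusted p = 0.0358), and 1 member was called in enhancer KO, while CXCR4 (0.0502) and FOSL2 (0.0573) missed the threshold. Leaving out 1 library, chosen after seeing the data, moved the KLF2 rate ratio between 0.128 and 0.311 and the KLF3 ratio between 1.47 and 2.39. KLF2 and KLF3 rest on at most 14 counts in a library.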
